A study of Arabidopsis thaliana with 12 samples.

Results

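Lipid transfer proteins and the fatty acyl reductase FAR1 were followed across the organs of a homograft of Arabidopsis thaliana. The genes are LTP2 (AT2G38530), LTP4 (AT5G59310), LTP8 (AT2G18370) and FAR1 (AT5G22500), each taken as the probe set that carries this single locus in the platform annotation or in the tables of the study. All 4 genes had 1 such probe set each, so 4 of 22746 probe sets are described. LTP2, LTP4 and FAR1 are named only by the tables of the study, which list genes that differed on these same samples, and a difference of theirs between scion and rootstock is therefore not independent evidence. LTP8 is named by the platform annotation and is not in that list.

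Wild-type Col-0 plants were used throughout. The primary inflorescence stem of each plant was cut and wedge-grafted back onto its own stump, so that scion and rootstock share 1 genotype and every sample comes from a grafted and wounded plant. Newly emerged closed flower buds and leaves were collected from side branches above the graft (scion) and below it (rootstock), 10 to 20 days after grafting, from grafted plants chosen for the best scion growth. Flower buds of the scion, flower buds of the rootstock, leaves of the scion and leaves of the rootstock were each measured on 3 of the 12 ATH1 arrays. Scion organs sat above rootstock organs on the same stem, and ungrafted plants were not analysed here, so an effect of grafting and an effect of stem position cannot be told apart.

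Lipid transfer proteins are small, cysteine-rich, secreted proteins that bind lipids in a hydrophobic cavity, and in Arabidopsis shoots many of them are made in the epidermis, where cuticle lipids are laid down in the cell wall. LTP2 has been linked to the sealing of the cuticle in the hypocotyl, and LTP4 is known for induction by drought and abscisic acid. FAR1 reduces very-long-chain fatty acyl groups to the primary alcohols found in suberin, the lipid polyester of the root endodermis, the periderm and wounded tissue.

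Values are given in log2 units, centred so that each probe set has a median of 0 on the 12 arrays. A value thus says how far an array lies above or below that median, and the values of different genes cannot be compared as levels. LTP2 spanned 6.36 log2 units over the 12 arrays, LTP4 6.16 and FAR1 5.41, and 99.3%, 99.1% and 98.2% of all probe sets on the array spanned less. LTP8 spanned 0.71, below the median span of 1.20 over all probe sets. The flat LTP8 signal cannot be read as low expression, since the centring has removed the level.

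LTP2 was higher in the scion than in the rootstock in both organs. Its values in scion flower buds were 2.48, 1.17 and 1.39 (replicates 1 to 3), against -0.09, 0.09 and 0.30 in rootstock flower buds. In scion leaves they were -0.45, 1.56 and -2.21, against -2.28, -2.40 and -3.87 in rootstock leaves. Scion and rootstock arrays did not overlap in either organ (all scion arrays were higher for 11.1% of all probe sets in flower buds and for 4.01% in leaves), although the scion leaves were spread widely and replicate 3 lay only just above the highest rootstock leaf. The difference was 1.58 ± 0.79 in flower buds (log2, SE, adjusted p = 0.51), or 2.99-fold, and 2.49 ± 0.79 in leaves (adjusted p = 0.443), or 5.61-fold. Neither passed the test over all probe sets, which required a 2-fold change and a p no higher than 0.05 after Benjamini-Hochberg adjustment. The 95% intervals ran from -0.17 to 3.33 in flower buds and from 0.73 to 4.24 in leaves. They rest on 1 spread over all 4 groups. On the arrays of the organ only, the SE was 0.33 in flower buds (limma, adjusted p = 0.0837, not past the threshold) and 0.98 in leaves.

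LTP4 had the same order. It stood at 1.92, 1.38 and 0.61 in scion flower buds, against 0.35, 0.25 and -1.80 in rootstock flower buds. Its values in scion leaves were -0.25, 1.35 and -0.91, against -2.42, -2.70 and -4.24 in rootstock leaves. Again no rootstock array reached the lowest scion array of the same organ, with the closest approach in flower buds, between scion replicate 3 and rootstock replicate 1. The difference was 1.70 ± 0.74 in flower buds (adjusted p = 0.424), or 3.25-fold, and 3.19 ± 0.74 in leaves (adjusted p = 0.231), or 9.10-fold, with 95% intervals of 0.07 to 3.33 and 1.55 to 4.82. Neither was past the threshold. Leaf arrays with the same replicate number deviated together, and with the number as a block within each organ the leaf difference kept its size with an SE of 0.35 and an adjusted p of 0.0136. With the block over all arrays the adjusted p was 0.0352, and with the block on the leaf arrays alone it was 0.0774, within a range of 0.0136 to 0.962 over 11 alternatives. Between leaves of the same number the LTP4 difference was 2.17, 4.05 and 3.34.

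**Figure D1:**
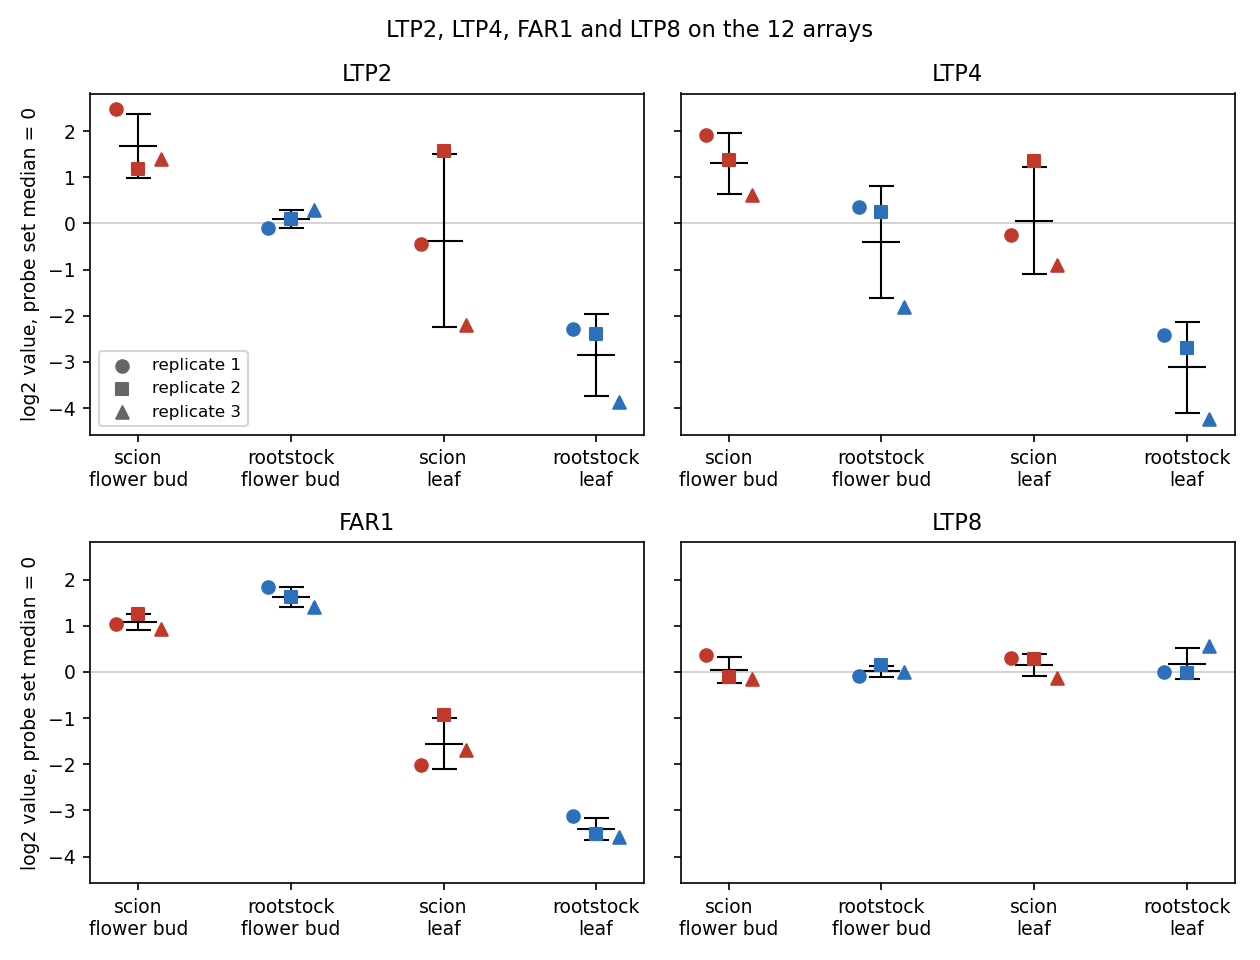
Log2 value (vertical axis, probe set median over the 12 arrays set to 0) of LTP2, LTP4, FAR1 and LTP8 on each array of the 4 groups, with 1 symbol per replicate, the group mean as a horizontal mark and the SD as a bar (n = 3 each). LTP2 and LTP4 lie higher in the scion in both organs, FAR1 lies higher in scion leaves and lower in scion flower buds, and LTP8 stays within 0.71 log2 units.

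Non-overlap in both organs with the scion higher was found for 2 of the 4 genes, LTP2 and LTP4, against 0.835% of all 22746 probe sets. Of all probe sets, 0.171% combined this with a difference of at least 2-fold in each organ, as both genes did. Since LTP2 and LTP4 are named only by the tables of the study, which list genes that differed on these samples, these shares are no test of them. LTP8, named by the platform annotation, overlapped in both organs. Their mean difference over both organs was 2.03 ± 0.56 for LTP2 (SE, limma, adjusted p = 0.198) and 2.44 ± 0.52 for LTP4 (adjusted p = 0.114), a comparison added after the values had been seen, in which 0.123% of all probe sets were called. With the replicate number as a block within each organ, both means passed (adjusted p = 0.0272 for LTP2 and 0.00842 for LTP4), and with the block over all arrays the adjusted p was 0.151 for LTP2 and 0.0266 for LTP4. Within 1 organ, 3 arrays against 3 cannot give a two-sided exact permutation p below 0.1, the value found for LTP2, LTP4 and FAR1 in each organ.

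Whether the scion effect differed between organs was tested as the leaf effect minus the flower bud effect. For LTP2 it was 0.91 ± 1.12 (adjusted p = 0.911), with a 95% interval of -1.57 to 3.39. For LTP4 it was 1.48 ± 1.04 (adjusted p = 0.822), with an interval of -0.82 to 3.79. Both intervals include 0. They allow a leaf effect several-fold larger than the flower bud effect, and also a flower bud effect larger than the leaf effect.

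FAR1 rose in scion leaves and lay lower in scion flower buds. Its values were 1.05, 1.26 and 0.93 in scion flower buds, against 1.84, 1.63 and 1.41 in rootstock flower buds. In scion leaves they were -2.02, -0.93 and -1.70, against -3.13, -3.50 and -3.57 in rootstock leaves. The arrays of scion and rootstock were fully separated in each organ, but in opposite directions, an arrangement that 0.404% of all probe sets showed (all scion flower buds were lower for 14.1%). The leaf difference was 1.85 ± 0.25 (SE, adjusted p = 0.0441), or 3.62-fold, and FAR1 was 1 of 6 probe sets that rose in scion leaves, 0.0264% of those tested. The flower bud difference was -0.54 ± 0.25 (adjusted p = 0.472), with a 95% interval of -1.11 to 0.02, and did not pass.

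The leaf call of FAR1 was close to the threshold. Between leaves of the same replicate number the difference was 1.12, 2.57 and 1.87, so all pairs had the same direction. With the replicate number as a block, the adjusted p was 0.0267 within each organ, 0.051 over all arrays and 0.118 on the leaf arrays alone. Each array left out in turn gave adjusted p-values of 0.0117 to 0.109 and differences of 1.54 to 2.09, and the call was kept in 2 of these 12 fits, those without scion leaf replicate 1 or 2. Quantile normalization of the deposited columns reduced the difference to 1.07 (adjusted p = 0.859), the highest adjusted p of 11 alternatives. The lowest, 3.46e-05, came from an analysis of variance that tests any difference among the 4 groups.

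The leaf effect of FAR1 minus its flower bud effect was 2.40 ± 0.36, with a 95% interval of 1.60 to 3.19. Its unadjusted p was 4.43e-05 and its adjusted p was 0.0812. No probe set passed this test in limma, while the unadjusted p was no higher than 0.05 for 7.74%. Without scion leaf replicate 2 the adjusted p of FAR1 was 0.0161 at a difference of 2.09. That was the 1 call among the 12 fits that left out 1 array, whose adjusted p-values ran from 0.0161 to 0.298.

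LTP8 showed no detectable difference in either organ. Its values were 0.36, -0.10 and -0.15 in scion flower buds, against -0.08, 0.15 and 0.00 in rootstock flower buds. In scion leaves they were 0.31, 0.28 and -0.12, against 0.00, -0.03 and 0.56 in rootstock leaves. Scion and rootstock overlapped in both organs. The difference was 0.02 ± 0.20 in flower buds (adjusted p = 0.992) and -0.02 ± 0.20 in leaves (adjusted p = 0.997). The intervals were -0.43 to 0.47 and -0.47 to 0.43. They leave room for scion changes from 0.74-fold to 1.38-fold in flower buds and from 0.721-fold to 1.35-fold in leaves.

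**Figure D2:**
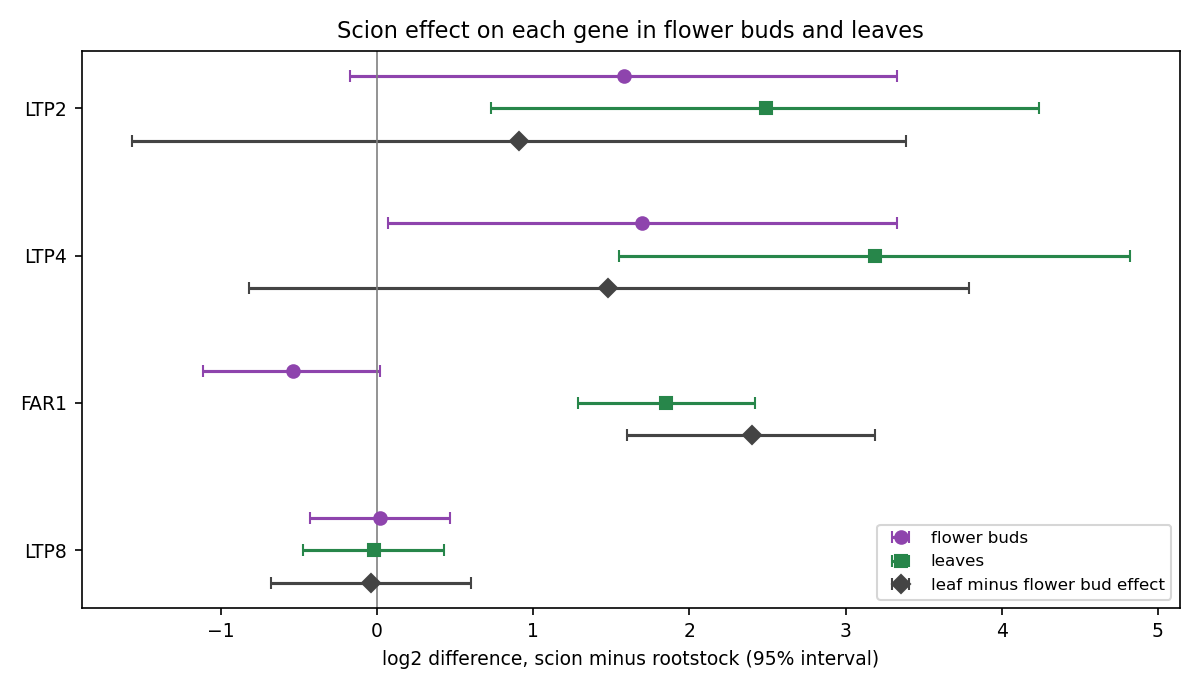
Log2 difference of scion minus rootstock (horizontal axis) for LTP2, LTP4, FAR1 and LTP8 in flower buds (circles), in leaves (squares) and as the leaf effect minus the flower bud effect (diamonds), with 95% intervals from limma. The FAR1 leaf effect of 1.85 lies above 0 and its flower bud effect of -0.54 below, while both effects of LTP8 are within 0.02 of 0.

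The organs themselves were set apart by 3 of the 4 genes. FAR1 was higher in flower buds than in leaves in the scion by 2.63 ± 0.25 (adjusted p = 5.46e-05), or 6.19-fold, and in the rootstock by 5.03 ± 0.25 (adjusted p = 4.16e-07), or 32.6-fold. LTP2 was higher in rootstock flower buds than in rootstock leaves by 2.95 ± 0.79 (adjusted p = 0.012) and LTP4 by 2.72 ± 0.74 (adjusted p = 0.0126). In the scion the same organ differences were 2.05 for LTP2 (adjusted p = 0.0713) and 1.24 for LTP4 (adjusted p = 0.223), which did not pass. Without scion leaf replicate 2 the LTP2 difference in the scion was 3.01 and passed (adjusted p = 0.00518). That the organ differences passed in the rootstock and not in the scion is no test of a difference, and the test of it is the organ difference given above. Without rootstock flower bud replicate 1 or 2 the LTP4 call in the rootstock was lost, at adjusted p = 0.052 and 0.0518. Of all probe sets, 10.5% were called higher in flower buds in the scion and 13.7% in the rootstock. LTP8 differed between organs by -0.12 in the scion and -0.16 in the rootstock, with intervals of -0.57 to 0.33 and -0.61 to 0.29.

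By group mean, LTP2 was highest in scion flower buds (1.68), followed by rootstock flower buds (0.10), then by scion leaves (-0.37), and was lowest in rootstock leaves (-2.85). Its rootstock flower buds lay within the range of the scion leaves, so these neighbours were not separated. LTP4 was highest in scion flower buds (1.30), then in scion leaves (0.06), rootstock flower buds (-0.40) and rootstock leaves (-3.12), and only the rootstock leaves did not overlap the group before them. FAR1 was highest in rootstock flower buds (1.63), then in scion flower buds (1.08), scion leaves (-1.55) and rootstock leaves (-3.40), with no overlap between any neighbours.

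LTP2 and LTP4 were spread widely among scion leaves, and replicate 2 was the highest for both. Against the mean of the rootstock leaves, LTP2 was higher by 2.40, 4.41 and 0.65 in scion leaf replicates 1, 2 and 3. LTP4 was higher by 2.87, 4.47 and 2.21, and FAR1 by 1.39, 2.47 and 1.70. All 3 genes thus had their largest excess in the same array. Without this array, the leaf differences were 1.52, 2.54 and 1.54 for LTP2, LTP4 and FAR1.

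Marker genes of other tissues differed among the same arrays. Of 9 measured tapetum and pollen wall genes (8 of them in the list of the study), whose products are made in anthers, all 9 were higher in scion leaves by 0.42 to 2.10 and none passed the test. The median of this list in scion leaves was -2.38, -4.37 and -1.49 (replicates 1 to 3), against -4.74, -4.45 and -4.49 in rootstock leaves. Scion leaf replicate 2, the array with the most LTP2, LTP4 and FAR1, was thus at the level of the rootstock leaves for the tapetum list. All 5 measured floral organ genes are in the list of the study and are named only by its tables. Of these, SEP1, SEP2 and AP1 rose in scion leaves, by 3.87, 1.81 and 1.22 (limma, adjusted p = 0.00485, 0.00524 and 0.0441). The 0.0264% of all probe sets that rose there is no fair comparison for genes named in this way. With each array left out in turn, SEP1 and SEP2 were called in all 12 fits and AP1 in 1, that without scion leaf replicate 2. These MADS-box genes specify floral organs and meristems. The median of the 5 was -2.55, -2.69 and -1.53 in scion leaves, against -4.13, -4.53 and -4.27 in rootstock leaves. This median was raised on all scion leaf arrays, but not every gene was. In replicate 2 SEP3 stood at -4.34, within its rootstock leaves (-4.71, -4.87 and -4.27), whereas SEP1, SEP2, AP1 and SEP4 did not overlap in leaves. SEP4 differed by -1.04 between flower buds and leaves of the scion (limma, adjusted p = 0.0142), with leaves higher. Median values of 3 leaf photosynthesis genes were 0.23 to 0.56 in scion leaves and 0.41 to 0.67 in rootstock leaves. FAR1 is higher in flower buds than in leaves in these data, and the part of bud tissue in its leaf difference was not tested. In bulk samples, more cells of a type and more RNA per cell cannot be told apart.

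**Figure D3:**
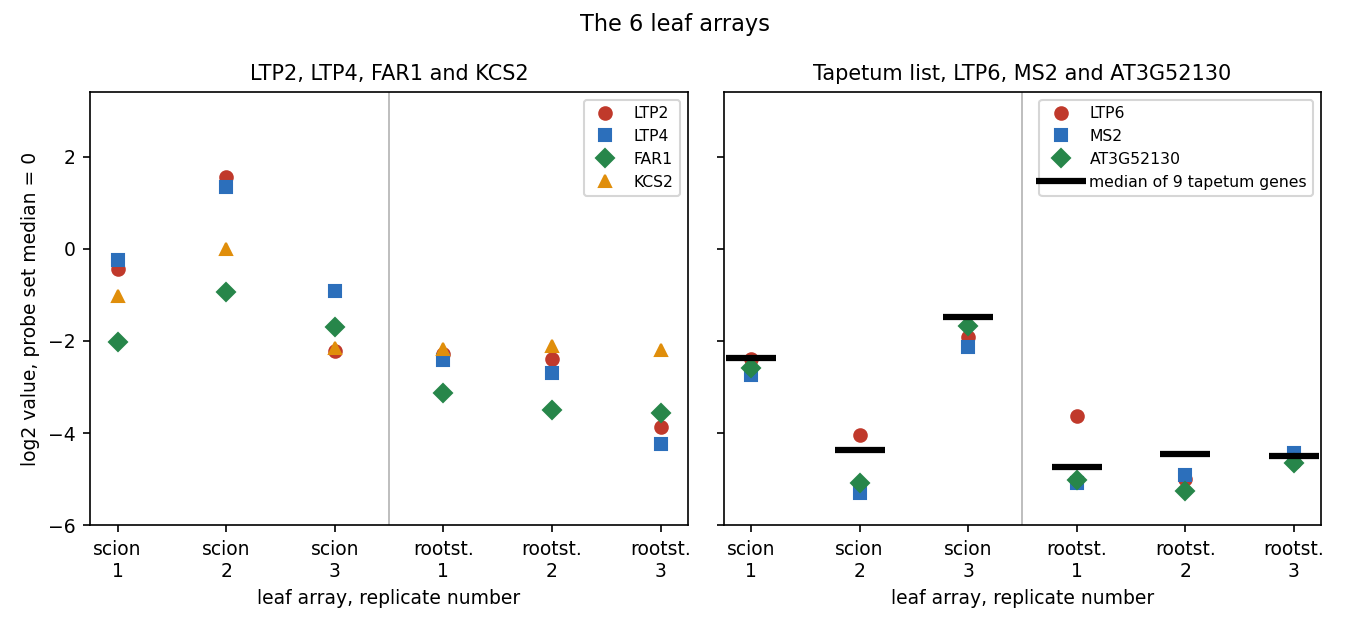
Log2 values (vertical axis, probe set median set to 0) on the 6 leaf arrays, scion left of rootstock, for LTP2, LTP4, FAR1 and KCS2 (left panel) and for LTP6, MS2, AT3G52130 and the median of 9 tapetum genes (right panel). LTP2, LTP4, FAR1 and KCS2 are highest in scion leaf replicate 2, where the tapetum median of -4.37 is close to the rootstock leaves.

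In flower buds the tapetum list was lower in the scion, with 9 of 9 genes lower by 0.41 to 1.12 and none past the test. Its median was 1.49, 2.36 and 1.99 in scion flower buds, against 2.76, 2.76 and 2.40 in rootstock flower buds. FAR1 had the same direction there, and LTP2 and LTP4 the opposite. The part of the tapetum signal in the flower bud values of FAR1 was not tested.

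Of 15 type I lipid transfer proteins on the list, 7 had a single-locus probe set, and none of the 7 passed the test between scion and rootstock in either organ. Of all probe sets, 0.396% were called in flower buds and 0.0528% in leaves. The median difference of the 7 was 0.02 in flower buds and 0.21 in leaves, against -0.04 and -0.01 over all probe sets. Single members went both ways. LTP6, LTP9, LTP10 and LTP15 are the other measured members, and roles for them are less well described. LTP6 is named only by the tables of the study.

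LTP6 stood at -2.40, -4.04 and -1.92 in scion leaves, against -3.62, -5.00 and -4.63 in rootstock leaves, a difference of 1.63 ± 0.48 (adjusted p = 0.391). Its lowest scion leaf was replicate 2, where LTP2 and LTP4 were highest, and without that array the LTP6 difference was 2.26 and passed (adjusted p = 0.0306). In flower buds LTP6 differed by -0.35 ± 0.48 (adjusted p = 0.90), with all scion arrays below all rootstock arrays, as for 14.1% of all probe sets. On the flower bud arrays alone its SE was 0.11 (limma, adjusted p = 0.168). LTP10 differed by 0.81 ± 0.24 in flower buds (limma, adjusted p = 0.202) and by 0.21 ± 0.24 in leaves (adjusted p = 0.956). In flower buds all its scion arrays were above all rootstock arrays, as for 11.1% of all probe sets. LTP9 was lower in the scion without overlap in both organs, by small differences of -0.27 ± 0.13 (adjusted p = 0.472) and -0.36 ± 0.13 (adjusted p = 0.523). All scion arrays were lower for 14.1% of all probe sets in flower buds and for 4.89% in leaves, and the share lower in both was not counted. LTP15, with 0.02 in flower buds and 0.05 in leaves, was as flat as LTP8. Between organs LTP6 and LTP10 were set apart strongly, with flower buds higher than leaves by 4.75 and 4.35 in the scion and by 6.73 and 3.75 in the rootstock, and all of these passed the test (adjusted p = 7.3e-05, 1.07e-06, 4.13e-06 and 2.14e-06).

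LTP1 and LTP3 lie next to LTP2 and LTP4 in the TAIR10.1 gene table. Neither has a probe set named for it alone in the sources used here. Whether the LTP2 and LTP4 probe sets also bind transcripts of these neighbours was not tested, and their values are uncertain to that extent.

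The tables of the study name 4 further genes only as members of the wider lipid transfer protein family, and they were added after their values had been seen. AT1G62510 was higher in the scion in both organs. It stood at 3.39, -0.52 and 1.80 in scion flower buds, against -1.27, -1.02 and -0.87 in rootstock flower buds, and at 2.02, 1.79 and 2.05 in scion leaves, against -0.67, -0.77 and 0.52 in rootstock leaves. No array overlapped within an organ, as for 0.835% of all probe sets with the scion higher in both. The differences of 2.61 ± 0.76 (limma, adjusted p = 0.19) and 2.26 ± 0.76 (adjusted p = 0.502) did not pass. AT1G18280 and AT4G08670 were higher in scion flower buds by 1.91 ± 0.42 (adjusted p = 0.0902) and 1.45 ± 0.38 (adjusted p = 0.145), with leaf differences of -0.17 and 0.03. Without scion flower bud replicate 2 the flower bud differences of AT1G62510, AT1G18280 and AT4G08670 were 3.65, 2.45 and 1.92 and passed (adjusted p = 0.0109, 0.00782 and 0.0162). AT3G52130 ran the other way, with -1.20 ± 0.67 in flower buds and 1.85 ± 0.67 in leaves (adjusted p = 0.586 and 0.563). In leaves it had the same order of scion arrays as the tapetum list, at -2.59, -5.09 and -1.68. Without replicate 2, its lowest scion leaf, the leaf difference was 2.83 (limma, adjusted p = 0.00776), a call made in 1 of 12 such fits.

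**Figure D4:**
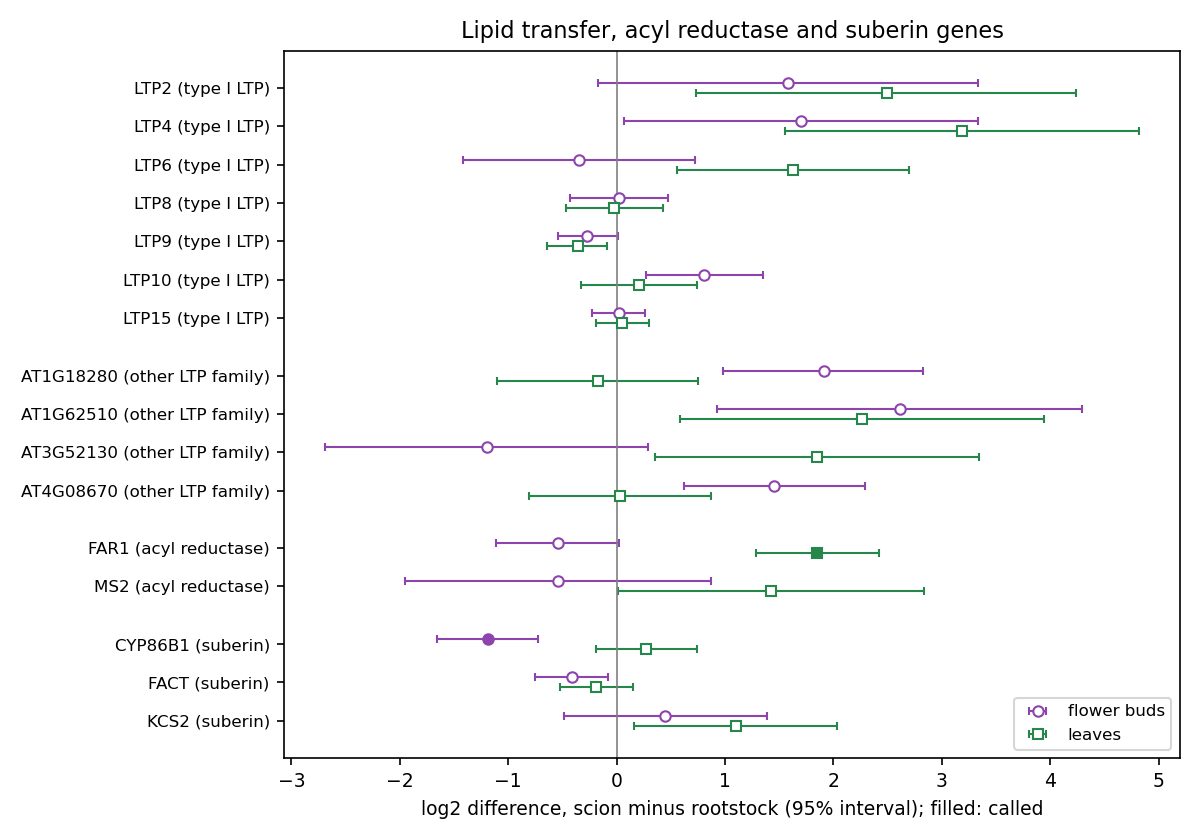
Log2 difference of scion minus rootstock (horizontal axis, 95% intervals from limma) in flower buds (circles) and leaves (squares) for type I lipid transfer proteins, other lipid transfer protein family genes, fatty acyl reductases and suberin genes. Filled symbols mark the 2 differences that passed the test, FAR1 in leaves and CYP86B1 in flower buds.

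Of 8 fatty acyl reductases, FAR1 and MS2 were measured, and both are in the list of the study. MS2 makes fatty alcohols for the outer wall of pollen. It stood at -2.74, -5.29 and -2.13 in scion leaves, against -5.09, -4.91 and -4.43 in rootstock leaves. FAR1 and MS2 thus both had a higher mean in scion leaves, but in replicate 2 MS2 was the lowest of all 6 leaf arrays and FAR1 the highest. The MS2 difference was 1.42 ± 0.64 in leaves (adjusted p = 0.693), or 2.38 without replicate 2 of the scion (adjusted p = 0.00814), and -0.54 ± 0.64 in flower buds (adjusted p = 0.873). In flower buds FAR1 had the same difference of -0.54 with an SE of 0.25. Both SEs rest on 1 spread over all 4 groups, leaves included. On the flower bud arrays alone the SE was 0.22 for MS2 and 0.15 for FAR1.

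Of 17 suberin genes, 4 were measured. FAR1, CYP86B1 and KCS2 are in the list of the study and are named only by its tables, and FACT is outside it. FAR1 rose in leaves and CYP86B1 fell in flower buds, and the other comparisons of these 4 genes between scion and rootstock did not pass. CYP86B1, a hydroxylase of very-long-chain suberin monomers, stood at 0.23, 0.80 and 0.78 in scion flower buds, against 2.06, 1.63 and 1.70 in rootstock flower buds. The difference was -1.19 ± 0.21 (adjusted p = 0.0481), and 0.158% of all probe sets fell in scion flower buds. The call was kept in 3 of 12 fits that left out 1 array, with adjusted p-values from 0.0318 to 0.187. It was lost on the flower bud arrays alone (0.051), with the replicate block over all arrays (0.0532) or on the flower bud arrays (0.073), and with a trended, robust prior (0.122). In leaves CYP86B1 differed by 0.27 ± 0.21 (adjusted p = 0.907). All scion flower buds were lower than all rootstock flower buds for FAR1, CYP86B1 and FACT, as for 14.1% of all probe sets.

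KCS2 belongs to the elongases that build the very-long-chain acyl groups that FAR1 reduces. It stood at -1.02, 0.00 and -2.16 in scion leaves, against -2.17, -2.10 and -2.19 in rootstock leaves. As for LTP2, replicate 2 was highest and replicate 3 was near the rootstock. The leaf difference was 1.1 ± 0.42 (adjusted p = 0.61), or 2.14-fold, and the flower bud difference 0.45 ± 0.42 (adjusted p = 0.815). FACT, an acyltransferase that couples fatty alcohols to caffeic acid, differed by -0.41 ± 0.15 in flower buds (adjusted p = 0.321) and -0.19 ± 0.15 in leaves (adjusted p = 0.912). The median difference of the suberin list was -0.48 in flower buds and 0.68 in leaves.

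Of 33 cutin and wax genes, 4 were measured and none passed between scion and rootstock. Their median difference was -0.01 in flower buds and 0.81 in leaves, and all 4 were called higher in flower buds than in leaves in both scion and rootstock, against 10.5% and 13.7% of all probe sets.

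Drought and abscisic acid response genes, of which 10 of 18 were measured, were all higher in scion flower buds by 0.26 to 4.32. The 7 in the list of the study are named only by its tables. The 0.237% of all probe sets that rose there is therefore no fair comparison for them. LTI30, COR47 and COR15A, named by the platform annotation, differed by 2.24, 0.67 and 0.26 and did not pass. Of the 10 genes, 3 passed the test, all from the 7 in that list. These were the dehydrin gene RAB18, by 4.32 ± 0.61 (adjusted p = 0.0227), and the protein phosphatase genes HAI2 and ABI2 of abscisic acid signalling, by 3.52 ± 0.53 and 2.30 ± 0.26 (adjusted p = 0.0305 and 0.00987). With each array left out in turn, RAB18 was called in 6 of 12 fits, HAI2 in 5 and ABI2 in 10. In leaves all 10 were higher by 0.17 to 0.91 and none passed. Against the mean of the rootstock arrays, the median of this list was higher by 2.81, 1.51 and 1.80 in scion flower bud replicates 1, 2 and 3, where LTP2 was higher by 2.38, 1.07 and 1.29. In scion leaves it differed by 0.43, 1.43 and -0.12, where LTP2 was higher by 2.40, 4.41 and 0.65. LTP4 was higher by 2.31, 1.78 and 1.01 in scion flower buds and by 2.87, 4.47 and 2.21 in scion leaves. The order of the replicates was that of the list in both organs for LTP2, but for LTP4 only in leaves. The part of such a response in these values was not tested.

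Over the 12 arrays LTP2 and LTP4 were correlated at r = 0.911, and at 0.689 after the group means had been removed. FAR1 was correlated with LTP2 at 0.786 (0.554 without group means) and with LTP4 at 0.72 (0.731). LTP8 was correlated with them at -0.11, -0.166 and -0.32 for LTP2, LTP4 and FAR1. These values describe 12 arrays that fall into 4 groups and carry no p.

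The single-locus probe sets most like LTP2 over the 12 arrays were AT5G43460 (r = 0.945), AT5G01940 (0.939), AT3G19200 (0.936), GH3.17 (0.935) and KCS2 (0.934). With the group means removed, r was between 0.772 and 0.905 for these 5, below the 99th percentile of 0.93 over all other single-locus probe sets. Most like LTP4 were AT1G63420 (0.926), AT1G26270 (0.917), LTP2 (0.911), AT1G26660 (0.903) and AT4G39560 (0.902). With the group means removed, their r was between 0.689 and 0.877, and only AT1G63420 (0.877) exceeded the 99th percentile of 0.857. The pattern of FAR1 was matched most closely, by AT1G24600 (0.986), AT4G23680 (0.985), AN3 (0.981), AT3G50780 (0.98) and AT2G03240 (0.977). Without group means its r was between -0.244 and 0.717, below the 99th percentile, which was 0.773. LTP8 had RALFL28 (0.875) as its closest match, and the last of its 5 closest, AT4G10210, was at 0.765. For these 5, r without group means was between 0.808 and 0.911, above the 99th percentile of 0.684. They were picked by r over the same arrays, and the group means of LTP8 lay between 0.02 and 0.18. The excess over the percentile is thus no separate evidence of likeness.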

How the data were processed

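RNA of 12 samples was hybridized to ATH1 arrays. The authors made the deposited log2 values with RMA in GeneSpring. Every probe set has a median of 0 over the arrays, a centring that the methods do not state, so no level, background or dim-probe filter can be derived. Control probe sets (64) were left out and 22746 tested, of which 13513 carry 1 gene in the platform annotation and 469 owe their name to the study's tables alone.

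Scion and rootstock, and flower buds and leaves, were compared by limma 3.58.1 (R 4.3.3). The model had 4 group means. Each probe set thus has 1 spread over all groups. Calls needed a 2-fold change and a p no higher than 0.05 after Benjamini-Hochberg adjustment (organ difference: adjusted p only). Counts and correlations were computed in Python 3.11.15 with pandas 2.3.3. The fit was tested on simulated data. The 3 arrays per group limit the precision, and p-values measure the spread between these samples. The study describes independent biological replicates but does not say whether equal numbers mark the same plants. Leaf arrays of the same number correlated at 0.342, 0.714 and 0.816 after removal of group means and those of different number at up to 0.396, whereas like-numbered flower bud arrays reached 0.0234, 0.0741 and 0.201. The reported values come from the fit without pairs, and the fit with the number as a block is given beside leaf results whose call it changes.

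The genes and the lists were chosen with earlier results of these data known. Named were the 4 genes, all measured type I lipid transfer proteins, fatty acyl reductases and suberin genes, the called genes of the drought and floral lists, and the 5 probe sets most like each gene by Pearson r. The rule would also take up to 2 further genes per list, which are given here only within the counts. The blocks, organ-only fits, array weights, other normalizations, the one-way analysis of variance of the methods, another prior and the loss of each array were tried as alternatives. Columns of the authors' own fold changes in the tables of the study were not used.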

Additional observations from a re-analysis of the deposited data

Results flagged for a closer look

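The estimated FAR1 scion effect differed in direction between the organs, although the flower bud effect of -0.54 did not pass (limma, adjusted p = 0.472). Every scion leaf lay above every rootstock leaf and every scion flower bud lay below every rootstock flower bud. The leaf effect minus the flower bud effect was 2.40 ± 0.36 on the log2 scale (SE, n = 3 arrays per group), which did not pass the limma test over all probe sets (adjusted p = 0.0812). Across 8 alternatives other than leaving out an array, the adjusted p ranged from 0.00795 to 0.54. With each array left out in turn it ranged from 0.0161 to 0.298 and passed in 1 of 12 fits. Groups of 3 arrays are too small for a test of single outlying arrays.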

How the results depend on the processing

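Precision is limited by 3 arrays per group, and signal over background cannot be read from centred values. The analysis of variance gives 1 p per probe set for any difference among the 4 groups, so its calls are no test of a single comparison. The fits on the arrays of 1 organ have few residual degrees of freedom. The cause of the changes below was not tested. The alternative with probe sets of LTP1 and LTP3 was not run, since neither has one of its own.

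With the replicate block over all arrays, the log2 difference was 3.19 for LTP4 in leaves and 1.24 between organs in the scion, 2.05 for LTP2 between organs in the scion (adjusted p = 0.0498), all past the threshold, and 1.85 for FAR1 in leaves, not past it. With the block within each organ, LTP4 passed in flower buds (1.70, adjusted p = 0.0444) and leaves (3.19), and FAR1 for the organ difference (2.40, adjusted p = 0.044). Flower bud calls then numbered 466, or 155 with the arrays of the organ only, against 90, and leaf calls 108, against 12. The block over all arrays gave 131 and 14 calls. On leaf arrays alone with the block, FAR1 in leaves (1.85) did not pass. The means over both organs of LTP2 (2.03, block within each organ) and LTP4 (2.44, both blocks) passed. The pairing changed no other call of the 4 genes. On the arrays of the organ only without a block, FAR1 in leaves (1.85) did not pass and leaf calls numbered 0 (adjusted p of FAR1 0.593).

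Array weights gave calls for LTP2 in flower buds (1.52) and between organs in the scion (1.98), for the FAR1 organ difference (2.01) and for the means over both organs of LTP2 (1.80) and LTP4 (1.77), with 639 flower bud and 226 leaf calls. They turned the sign of LTP8 to -0.09 in flower buds, 0.22 in leaves, 0.32 for the organ difference and 0.01 between organs in the rootstock, and that of LTP10 (-0.04) and LTP15 (-0.02) in leaves. Quantile normalization left FAR1 in leaves at 1.07, not past the threshold, gave a call for LTP2 between organs in the scion (2.71) and turned the LTP2 organ difference to -0.32, LTP10 in leaves to -0.16 and AT4G08670 in leaves to -0.10, with 143 and 4 calls. By analysis of variance LTP2 passed in flower buds (1.58), leaves (2.49) and between organs in the scion (2.05), as did LTP4 (1.70, 3.19 and 1.24), with 566 and 297 calls. With a trended, robust prior FAR1 in leaves (1.85) did not pass, and calls numbered 3 and 0. Single-locus probe sets alone gave 149 and 31 calls.

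A fit with scion leaf replicate 2 as the only scion leaf array was chosen because this array was highest for LTP2, LTP4 and FAR1, so its larger differences are no evidence for them. LTP2 was 4.41 in leaves and the FAR1 organ difference 3.02, with 43 and 159 calls. LTP4 between organs in the scion was -0.05, LTP8 0.10 in leaves and 0.08 for the organ difference, MS2 -0.48, CYP86B1 -0.02, AT3G52130 -0.12 and AT4G08670 0.00 in leaves.

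With each array left out in turn, flower bud calls ranged from 0 (without rootstock flower bud replicate 1) to 286 (without scion flower bud replicate 2) and leaf calls from 7 to 55 (without scion leaf replicate 2). The LTP2 organ difference ranged from -0.05 to 1.83 and its organ contrast in the scion from 1.13 to 3.01. LTP4 between organs in the rootstock ranged from 2.16 to 3.43, FAR1 in leaves from 1.54 to 2.09 and its organ difference from 2.09 to 2.63. LTP8 ranged from -0.14 to 0.11 in flower buds, from -0.12 to 0.17 in leaves, from -0.14 to 0.15 for the organ difference and from -0.26 to 0.04 between organs in the rootstock. LTP10 in leaves ranged from -0.03 to 0.39, LTP15 from -0.02 to 0.06 in flower buds and from -0.01 to 0.11 in leaves, and AT4G08670 in leaves from 0.00 to 0.08.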
